A study of Mus musculus with 28 samples.

Results

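Transforming growth factor beta (TGF-beta) genes were followed in outflow veins of mouse arteriovenous fistulas (AVFs), in bulk tissue and in single cells. The 10 genes were chosen by name as the 3 ligands (*Tgfb1*, *Tgfb2*, *Tgfb3*), the 3 receptors (*Tgfbr1*, *Tgfbr2*, *Tgfbr3*), 3 latency proteins (*Ltbp1*, *Ltbp2*, *Ltbp3*), and the inhibitory Smad *Smad7*. All 10 were found among the 56980 genes of the bulk table and the 32285 genes of the single-cell matrices. The animals were male and female C57BL/6 mice, and every one of them, including those that gave contralateral veins, had a 5/6 nephrectomy followed weeks later by an AVF in which the cut jugular vein was sewn onto the flank of the carotid artery. Bulk RNA sequencing covered 7 contralateral jugular veins, which carried no anastomosis, and 8 early, 5 mid, and 5 late AVFs, taken about 3, 10, and 21 days after surgery. The paper reports that harvest day varied within each AVF group, most widely in the early one. The labels give only the nominal day of a library. Of these 25 libraries, 11 came from males and 14 from females. Single-cell RNA sequencing covered 1 contralateral, 1 early, and 1 late library, each a pool of 10 vessels from both sexes, with harvest days that differ from those of the bulk series.

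TGF-beta is secreted as an inactive complex, in which the cytokine stays bound to its own propeptide. Latent TGF-beta binding proteins, encoded by the *Ltbp* genes, tie this complex to the extracellular matrix (ECM), where integrins and proteases can release the active ligand. The free ligand brings the type II receptor (*Tgfbr2*) and the type I receptor kinase (*Tgfbr1*) together, betaglycan (*Tgfbr3*) presents ligand to them, and the signal runs through Smad proteins until Smad7 shuts it down. In vessels the pathway is known for matrix deposition, myofibroblast formation, and smooth muscle cell (SMC) phenotype.

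A pair of promoters is shown because they belong to the 2 members whose transcripts were higher in bulk AVFs than in contralateral veins at each of the 3 times. Each sequence runs from 250 bases before to 50 bases after the RefSeq start on GRCm38.p6, 5′ to 3′ on the strand of the gene, with chr7:25686752-25687051 on the plus strand for *Tgfb1* and chr12:84876442-84876741 on the minus strand for *Ltbp2*. Capitals mark matches to a Smad motif (CAGAC or its reverse complement GTCTG) and to a GC box (GGGCGG or CCGCCC).
Tgfb1: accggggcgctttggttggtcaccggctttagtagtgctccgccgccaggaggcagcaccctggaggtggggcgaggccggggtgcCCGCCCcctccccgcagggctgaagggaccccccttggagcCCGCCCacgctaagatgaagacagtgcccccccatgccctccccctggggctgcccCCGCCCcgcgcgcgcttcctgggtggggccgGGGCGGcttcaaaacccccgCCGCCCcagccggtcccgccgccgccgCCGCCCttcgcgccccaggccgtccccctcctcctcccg
Ltbp2: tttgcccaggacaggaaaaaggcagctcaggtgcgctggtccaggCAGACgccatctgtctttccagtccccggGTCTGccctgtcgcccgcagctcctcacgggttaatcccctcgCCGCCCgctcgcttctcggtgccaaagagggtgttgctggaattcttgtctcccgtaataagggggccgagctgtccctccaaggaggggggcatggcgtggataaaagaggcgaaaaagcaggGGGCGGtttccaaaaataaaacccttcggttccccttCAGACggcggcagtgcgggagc
The *Tgfb1* window was 77.0% G and C, against a median of 52.7% over 32851 mouse promoters of the same length, and held 6 GC boxes and no Smad motif. The *Ltbp2* window was 61.0% G and C and held 3 Smad motifs and 2 GC boxes. On either strand, 49.6% of the 32851 promoters held the Smad motif and 35.7% the GC box. An AP-1 motif (TGACTCA or TGAGTCA, in 5.2% of promoters) and a TATA motif (TATAAA or TTTATA, in 13.6%) were searched as well, and neither window held one. Promoter windows were obtained for 7 of the 10 genes, and none was obtained here for *Tgfb3*, *Tgfbr3*, and *Smad7*. In the reference annotation of the same build, *Tgfb1* spans chr7:25687002-25705077, *Ltbp2* spans chr12:84783212-84876532, and *Tgfbr3* spans chr5:107106570-107289629.

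The bulk libraries were unequal in quality between the groups, which bears on every comparison with contralateral veins. Of the 12673 genes tested, 2.86% to 22.5% had no count in a contralateral library, against 0.0789% to 4.7% in an AVF library. Within contralateral veins the median rank correlation of a library with the others ranged from 0.587 to 0.742, against 0.932 to 0.964 in mid and late AVFs. Summed marker genes of SMCs and pericytes ranged from 10100 to 22000 CPM (counts scaled to a common library size) in contralateral veins and from 1140 to 4130 CPM in AVFs, and those of endothelial cells (ECs) from 2940 to 4780 CPM in contralateral veins and from 405 to 1040 CPM in AVFs. Those of monocytes and macrophages (mono/macros) ranged from 1990 to 8010 CPM in contralateral veins and from 7660 to 39300 CPM in AVFs. Fibroblast markers had medians of 26100 CPM in contralateral, 15000 in early, 27000 in mid, and 24500 in late libraries. This sum includes *Dcn*, whose mean alone was 11300 CPM in contralateral and 1730 CPM in early libraries. Platelet markers ranged from 258 to 595 CPM in contralateral, 400 to 12800 in early, 237 to 505 in mid, and 345 to 939 in late libraries. All 12 mono/macro markers and all 10 markers each of SMCs and pericytes and of ECs were found above 0. Skeletal muscle genes reached 11000 CPM and thyroid and parathyroid genes 14100 CPM in single AVFs, against at most 67.8 and 28.3 CPM in contralateral veins. In bulk tissue, fewer cells of a type and less RNA per cell cannot be told apart, and the part of these shifts in the results was not tested.

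Of the 3 ligands, *Tgfb1* was higher in AVFs at every time in bulk tissue, and neither *Tgfb2* nor *Tgfb3* passed the test. *Tgfb1*, the isoform carried by leukocytes and platelets, was close to absent from contralateral libraries, with a lowest value of 0, a median of 0.237, and a highest value of 0.999 CPM. Of these 7 libraries, 2 held no read of it and the others held at most 16. In early AVFs the lowest, median, and highest levels were 2.08, 5.27, and 19.6 CPM. The 5 mid AVFs held 4.46, 5.49, 5.87, 5.89, and 3.65 CPM, and the 5 late AVFs 4.11, 3.81, 3.46, 5.80, and 6.07 CPM. Every AVF lay above every contralateral vein. The mean rose from 0.344 ± 0.347 CPM (SD, n = 7) to 6.80 ± 5.38 CPM (n = 8) in early, 5.07 ± 0.984 CPM (n = 5) in mid, and 4.65 ± 1.2 CPM (n = 5) in late AVFs. Log2 fold changes against contralateral veins were 4.30 (SE 0.83, adjusted *p* = 0.000396), 3.87 (SE 0.85, adjusted *p* = 0.00272), and 3.75 (SE 0.85, adjusted *p* = 0.00404) by edgeR's quasi-likelihood test, against a reference group with very few reads. Without late 24 the late difference missed the threshold of 0.01, with an adjusted *p* of 0.0105.

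*Tgfb3*, the isoform of fibroblasts and mural cells, had a lowest, median, and highest level of 56.0, 147, and 546 CPM in contralateral veins and of 11.7, 66.3, and 163 CPM in early AVFs. The mid AVFs held 246, 163, 291, 258, and 311 CPM, and the late AVFs 217, 242, 268, 217, and 247 CPM. Late AVFs did not overlap early AVFs, while contralateral veins overlapped all other groups. Neither the early difference from the contralateral group (−1.47 on the log2 scale, SE 0.50, adjusted *p* = 0.0318) nor the difference of late from early AVFs (1.75, SE 0.53, adjusted *p* = 0.0439) passed the threshold. The lowest values came from early 5, 6, and 7, with 11.7 to 13.2 CPM against 61.4 to 163 CPM in the other 5 early AVFs. These 3 libraries also had the lowest summed fibroblast markers, 2610 to 7170 against 13900 to 22800 CPM, and platelet markers of 2680 to 12800 against 400 to 4160 CPM. Without them, an alternative chosen after the data were seen, the early difference of *Tgfb3* was −0.83 (adjusted *p* = 0.162) and that of late from early AVFs 1.16 (adjusted *p* = 0.171).

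*Tgfb2*, the remaining ligand, ranged from 0 to 112 CPM in contralateral veins (median 69.0) and from 11.8 to 51.7 CPM in early AVFs (median 42.5). It stood between 48.7 and 74.5 CPM in mid and between 62.0 and 75.1 CPM in late AVFs, so that late AVFs lay above all early ones. The early log2 fold change of −0.75 (SE 0.64, adjusted *p* = 0.445) was within the spread among vessels.

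Among the receptors, only betaglycan passed the test against contralateral veins, and it was lower. *Tgfbr3* had a lowest, median, and highest level of 114, 204, and 486 CPM in contralateral veins. In early AVFs these were 41.5, 87.2, and 114 CPM, so that the groups met at their edges, with 7 of 8 early AVFs below every contralateral vein. The mid AVFs held 103, 124, 155, 117, and 132 CPM, and the late AVFs 133, 182, 122, 110, and 126 CPM. The mean of 234 ± 122 CPM (SD, n = 7) compared with 84.7 ± 23.2 CPM (n = 8) in early AVFs, a 2.77-fold lower level in the fit (log2 fold change −1.47, SE 0.25, adjusted *p* = 0.000108). The differences of −0.89 in mid (SE 0.29, adjusted *p* = 0.0428) and −0.80 in late AVFs (SE 0.29, adjusted *p* = 0.072) did not pass. On the same strand, 3 other gene models overlap *Tgfbr3*, and how shared reads were counted is not given in the sources used here.

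Neither signalling receptor was called at any time, and both had their higher means in mid and late AVFs. *Tgfbr1* ranged from 0.0876 CPM, which is 2 reads, to 199 CPM in contralateral veins (median 76.2) and from 43.0 to 119 CPM in early AVFs (median 90.3). The mid AVFs held 138, 141, 149, 142, and 145 CPM and the late AVFs 145, 141, 154, 122, and 158 CPM. Both later groups lay above every early AVF, with little spread, and within the range of the contralateral veins. *Tgfbr2* ranged from 154 to 1150 CPM in contralateral veins (median 301) and from 116 to 393 CPM in early AVFs (median 241), and averaged 466 ± 90.1 CPM in mid and 486 ± 106 CPM in late AVFs (SD, n = 5 each). The late difference from early AVFs was 0.98 for *Tgfbr2* on the log2 scale (SE 0.35, adjusted *p* = 0.104).

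Of the latency proteins, *Ltbp2* was higher in AVFs at every time, and *Ltbp1* and *Ltbp3* were not called. *Ltbp2*, which binds to fibrillin microfibrils and, unlike its relatives, is not known to carry latent TGF-beta, had a lowest, median, and highest level of 0, 9.41, and 36.6 CPM in contralateral veins. These were 31.0, 93.0, and 195 CPM in early AVFs. The mid AVFs held 278, 161, 284, 197, and 248 CPM, and the late AVFs 311, 467, 415, 350, and 399 CPM. Late AVFs lay above all mid and all early AVFs, and mid AVFs overlapped the upper end of early AVFs. The means were 12.1 ± 13.8 CPM (SD, n = 7), 93.3 ± 52.3 CPM (n = 8), 234 ± 53.3 CPM (n = 5), and 388 ± 60.1 CPM (n = 5). Against contralateral veins the log2 fold change was 2.95 (SE 0.73, adjusted *p* = 0.00391) in early, 4.27 (SE 0.81, adjusted *p* = 0.000642) in mid, and 5.00 (SE 0.83, adjusted *p* = 0.000214) in late AVFs. The step from early to late AVFs, 2.06 (SE 0.72), had an adjusted *p* of 0.0922 when all groups shared an estimate of the spread and of 0.00417 when these groups were fitted alone, where contralateral veins no longer entered that estimate. Without early 5, 6, and 7 it was 1.70 (adjusted *p* = 0.507). *D030025P21Rik* overlaps *Ltbp2* on the opposite strand, as *Ttll5* does *Tgfb3*, and whether reads were counted by strand is not given in the sources used here.

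*Ltbp1*, the main carrier of latent TGF-beta in the ECM, ranged from 15.3 to 305 CPM in contralateral veins (median 92.3) and from 107 to 206 CPM in early AVFs (median 168). The mid AVFs held 209, 261, 383, 295, and 275 CPM and the late AVFs 368, 404, 282, 291, and 299 CPM. Every mid and late AVF lay above every early AVF. The log2 fold change against contralateral veins was 0.52 (SE 0.37, adjusted *p* = 0.337) in early, 1.33 (SE 0.41, adjusted *p* = 0.032) in mid, and 1.54 (SE 0.41, adjusted *p* = 0.0139) in late AVFs, none past the threshold. The late difference of *Ltbp1* passed with DESeq2's test (adjusted *p* = 0.00556), without scaling factors (0.00515), and with more genes tested (0.00851 with filterByExpr, 0.00929 without a filter), and its adjusted *p* was 0.109 with the 2 groups alone. *Ltbp3*, which serves the same role, ranged from 13.9 to 136 CPM in contralateral veins and from 45.7 to 112 CPM in early AVFs. Its means of 114 ± 7.25 CPM in mid and 103 ± 18.2 CPM in late AVFs (SD, n = 5 each) stood above the contralateral mean of 64.7 ± 39.2 CPM (n = 7) without passing the test (mid against contralateral 0.82, SE 0.34, adjusted *p* = 0.123). *Smad7*, the feedback inhibitor, was not called in any comparison, with means of 10.4 ± 8.3, 8.98 ± 5.14, 6.73 ± 1.01, and 7.5 ± 3.94 CPM in the contralateral, early, mid, and late groups (SD, n = 7, 8, 5, and 5).

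**Figure D1:**
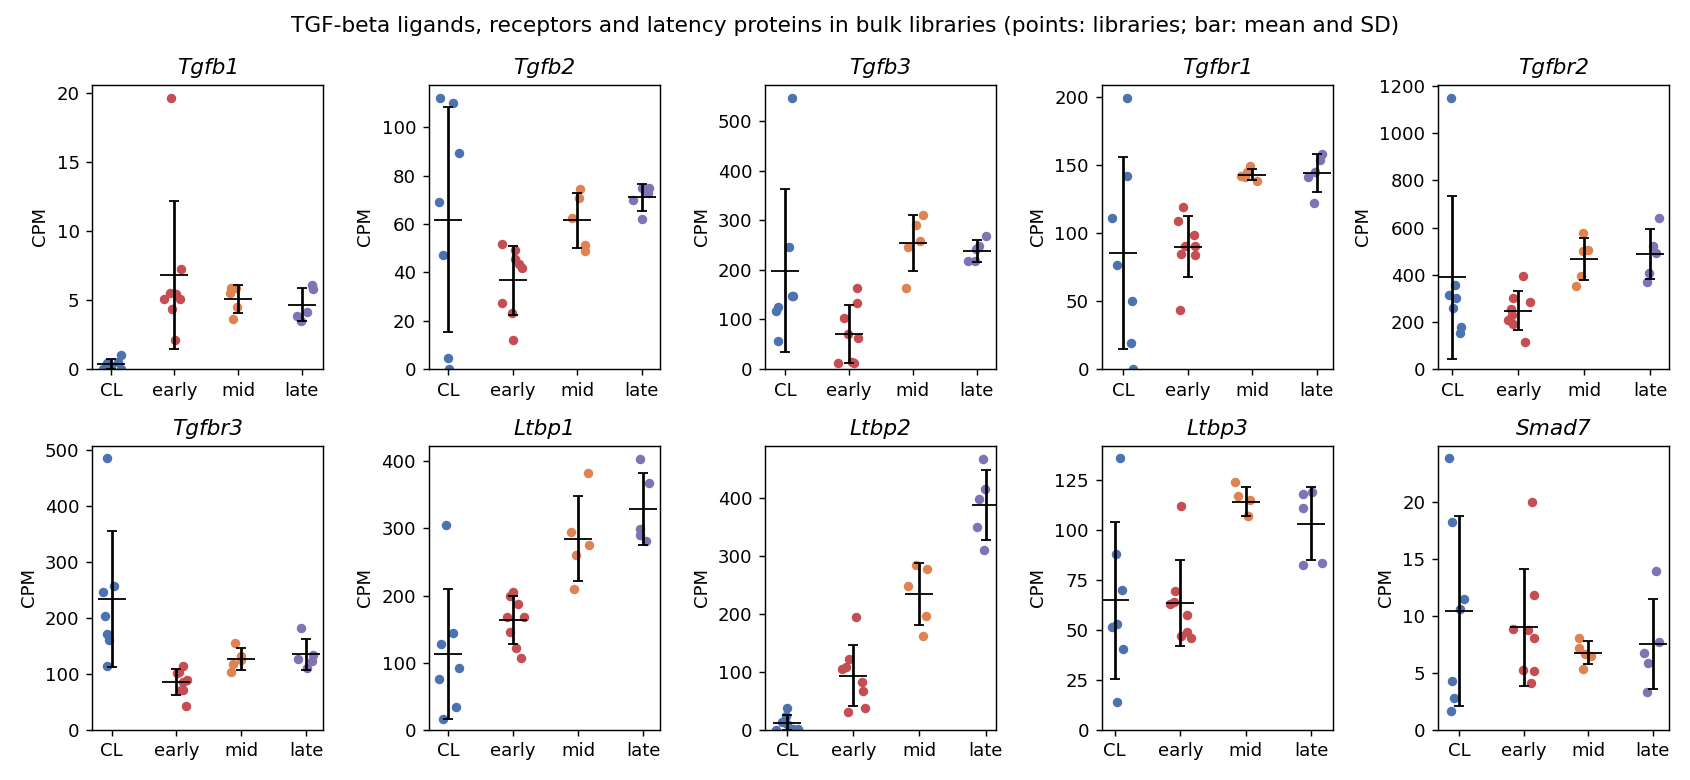
Level of each gene in CPM (vertical axes, linear and from 0) in the contralateral (CL), early, mid, and late groups. Points are libraries, the horizontal bar is the mean, and the vertical bar the SD, which is drawn down to 0 at most. *Tgfb1* lies at 0.999 CPM or less in contralateral veins and at 2.08 CPM or more in AVFs, *Ltbp2* has means of 12.1 CPM in contralateral veins and 388 CPM in late AVFs, and *Tgfbr3* of 234 CPM in contralateral veins and 84.7 CPM in early AVFs.

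Per kilobase of exon, *Tgfb3* averaged 58.4 ± 48.4 CPM per kb (SD, n = 7) in contralateral veins, *Tgfbr2* 47.4 ± 42.1, and *Tgfbr3* 35.8 ± 18.6, which differed by less than their spread, and the mean of *Tgfbr2* includes contralateral 28, far above the others. The next neighbours *Tgfbr1* (13.1), *Tgfb2* (10.7), and *Ltbp1* (10.6) differed by less than their spread, with an SD of 10.8 CPM per kb for *Tgfbr1* alone. *Ltbp2* (1.47) and *Tgfb1* (0.0683) came last. In late AVFs *Tgfb3* averaged 70.4 CPM per kb, *Tgfbr2* 59.4, and *Ltbp2*, now the next in order, 47.4, ahead of *Ltbp1* at 30.8 CPM per kb. *Tgfb1* remained last, at 0.922 CPM per kb. In bulk tissue its mean was below that of both other ligands in every group, while over all kept single cells, by UMIs at the 3′ end, *Tgfb1* stood at 88.9 CPM in the contralateral library against 35.5 for *Tgfb2* and 39.8 for *Tgfb3*, and at 145 CPM in the early library against 67.6 and 25.7, and in the late library its 88.9 CPM lay between 133 for *Tgfb2* and 42.0 for *Tgfb3*.

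Counted over the members, the early comparison with contralateral veins called 2 of 10 genes higher (*Tgfb1* and *Ltbp2*) and 1 lower (*Tgfbr3*), where 6.17% of all 12673 genes were called higher and 6.45% lower. The median log2 fold change of the 10 genes was −0.12, and that of all genes was near 0. Mid and late AVFs each called *Tgfb1* and *Ltbp2* higher and no member lower, where 2.74% and 2.49% of all genes were called higher and 3.31% and 2.85% lower. The median of the members was 0.55 in mid and 0.50 in late AVFs, against −0.10 and −0.09 over all genes. These 3 comparisons share the contralateral veins, so that an unusual contralateral library enters all of them. With only the 2 groups of a comparison in the fit, *Tgfbr3* alone kept its call in early AVFs (adjusted *p* = 0.00437), and *Tgfb1* and *Ltbp2* had adjusted *p* values of 0.0202 and 0.0446 in early, 0.0694 and 0.0252 in mid, and 0.0817 and 0.0126 in late AVFs. An exact 2-sided permutation test on log2(CPM + 1), added after the data were seen and not adjusted for its 40 tests, gave *p* = 0.000311 for *Tgfb1* and 0.000622 for both *Ltbp2* and *Tgfbr3* in early AVFs (n = 8 and 7), and 0.00253 for *Tgfb1* and *Ltbp2* in mid and in late AVFs (n = 5 and 7). For late against early AVFs (n = 5 and 8) it gave 0.00155 for *Tgfb2*, *Tgfb3*, *Tgfbr1*, *Ltbp1*, and *Ltbp2*. There *Tgfbr2* and *Tgfbr3* had 0.00311, *Ltbp3* 0.0109, *Tgfb1* 0.499, and *Smad7* 0.597. Values of 0.000311, 0.00253, and 0.00155 are the lowest possible at these group sizes, and any gene whose groups do not overlap reaches them.

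Between AVFs of different age no member was called, where 0.00789% of all genes were higher and 0% lower from early to mid, 0.726% were higher and 2.28% lower from early to late, and 0% were called in either direction from mid to late. Of the 10 genes, 4 had an unadjusted *p* under 0.05 from early to mid and 6 from early to late in edgeR's test, where 12.7% and 15.9% of all genes did, while from mid to late none did (0.308% of all genes). The median log2 fold change from early to late AVFs was 0.82, against 0.01 over all genes. From early to late, 5 of 10 members did not overlap between the groups and all were higher late (*Tgfb2*, *Tgfb3*, *Tgfbr1*, *Ltbp1*, and *Ltbp2*), where 15.5% of all genes did not overlap. From mid to late AVFs *Ltbp2* alone did not overlap, against 2.11% of all genes.

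**Figure D2:**
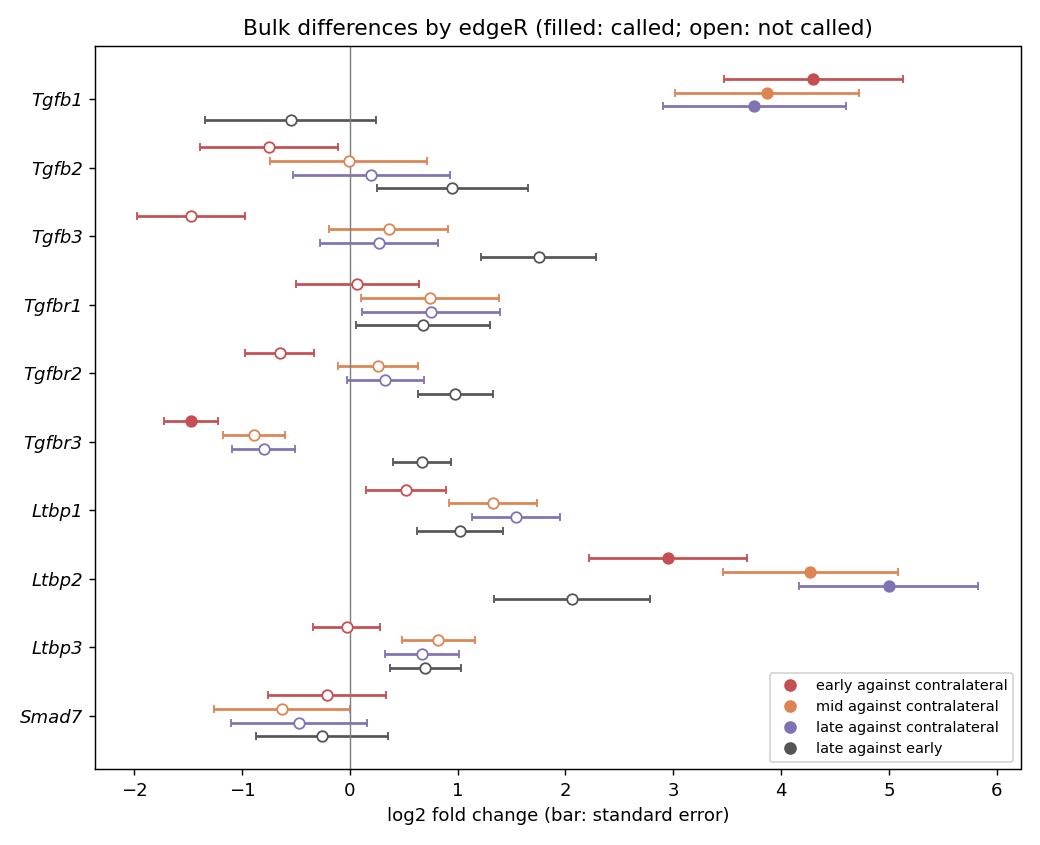
Log2 fold change of each gene (horizontal axis, bars are standard errors) for early, mid, and late AVFs against contralateral veins and for late against early AVFs, from edgeR. Filled points passed an adjusted *p* under 0.01 with a change of at least 1 on this scale: *Tgfb1* and *Ltbp2* in all 3 comparisons with contralateral veins and *Tgfbr3* in the early one.

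No member was called for a difference between the sexes in the change from contralateral veins to early AVFs. In edgeR's test of this interaction, 0 of 10 genes passed an adjusted *p* of 0.05 (lowest adjusted *p* = 0.738), where 57 of all genes did. Sex differences in level, and in the change to mid or late AVFs, were not tested. In females alone no member was called, and the early log2 fold changes were 5.07 for *Tgfb1* (adjusted *p* = 0.0418), 3.11 for *Ltbp2* (adjusted *p* = 0.124), and −1.27 for *Tgfbr3* (adjusted *p* = 0.0504). In males alone *Tgfbr3* was called (−2.05, adjusted *p* = 0.00075), and *Tgfb1* and *Ltbp2* stood at 3.57 (adjusted *p* = 0.0129) and 2.85 (adjusted *p* = 0.0774). Only 2 of the contralateral veins came from males.

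The genes whose levels ran most like those of the called members over the 25 libraries were *Sash3* (Pearson's *r* = 0.96), *Unc13d* (0.95), and *Slc15a3* (0.93) for *Tgfb1*, *Selenbp1* (0.91), *Dpep1* (0.90), and *Bace2* (0.90) for *Tgfbr3*, and *Disp1*, *Twnk*, and *Camk1d* (0.94 each) for *Ltbp2*. Among the members, *Tgfbr1* and *Ltbp1* ran most alike (*r* = 0.84), followed by *Tgfb3* and *Tgfbr2* (0.81), while *Tgfb1* and *Tgfbr3* ran in opposite directions (−0.62). All of these describe the same 25 libraries, in which the groups and the quality of the libraries differ together.

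Other genes of the pathway were counted in 5 lists, beside the shares of all genes called (6.17% higher and 6.45% lower in early, 2.74% and 3.31% in mid, and 2.49% and 2.85% in late AVFs). Of 19 tested genes of latency and activation, 2 were called higher and 2 lower in early AVFs, 3 higher and 1 lower in mid, and 1 higher and 0 lower in late AVFs, with medians of 0.81, 0.94, and 0.77. *Ltbp4*, a further latency protein, was lower (48.4 ± 27.4 against 574 ± 282 CPM, log2 fold change −3.57, SE 0.31, adjusted *p* = 4.72e-09), as was *Itga8*, an integrin subunit of contractile cells (−2.17, adjusted *p* = 0.000153). *Furin*, the protease that cleaves the TGF-beta precursor, was higher (1.85, adjusted *p* = 0.00736). From early to late AVFs *Ltbp4* (2.80, adjusted *p* = 1.57e-05) and *Itga8* (1.84, adjusted *p* = 0.00565) were higher. *Ltbp4* thus moved opposite to *Ltbp2* in early AVFs. Of 10 co-receptors and decoys, 2 were lower in early AVFs, namely decorin (*Dcn*, −2.71, adjusted *p* = 5.44e-07), a proteoglycan that binds TGF-beta, and endoglin (*Eng*, −1.37, adjusted *p* = 0.0015), a co-receptor of ECs. *Dcn* was higher in late than in early AVFs (1.51, adjusted *p* = 0.00529), and it is also one of the summed fibroblast markers.

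Of 11 tested Smads and co-factors and 11 genes of receptor degradation and feedback, edgeR called 0 in each comparison. At the shares of all genes called, a count of 0 in a list this short is near the background. Of 23 transcripts known to rise with TGF-beta, 8 were higher and 4 lower in early and in mid AVFs, and 6 were higher and 4 lower in late AVFs, with medians of 0.13, 1.11, and 1.06. The largest early differences were those of *Adam12* (5.31, SE 0.94, adjusted *p* = 0.000153), a metalloprotease, *Cthrc1* (4.59, adjusted *p* = 0.000211), a marker of matrix-producing fibroblasts, and *Timp1* (4.55, adjusted *p* = 1.57e-08), an inhibitor of metalloproteases. *Timp1* was lower in late than in early AVFs (−2.42, adjusted *p* = 0.00241). The 4 lower transcripts, named after their values were seen, were the contractile genes *Cnn1* (−4.18), *Acta2* (−2.66), *Tagln* (−2.58), and *Tpm1* (−2.50), and the first 3 of these are also SMC and pericyte markers, whose sum was lower in AVFs. Other signals raise many of these transcripts as well.

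Single cells were used to place the members in cell classes. Of 26438 barcodes, 16893 had 200 to 6000 genes and at most 10% mitochondrial counts. They came as 6319 contralateral, 4753 early, and 5821 late cells, with median depths of 2751, 8951, and 15425 unique molecular identifiers (UMIs). Between 14 and 19 barcodes were shared by a pair of libraries. Clusters were named from marker genes, without the members among the clustering genes. Fibroblasts numbered 1882, 408, and 1978 cells in contralateral, early, and late libraries, mono/macros 727, 2363, and 1906, SMCs and pericytes 32, 210, and 492, and ECs 803, 70, and 75. A cluster of 23, 423, and 345 cells, led by the parathyroid gene *Pth*, stayed unnamed. Its median depth was only 1342, 1239, and 800 UMIs, and *Cthrc1*, *Timp1*, and *Eln* were also among its top genes. In the early library it held 8.51% of *Ltbp2* and 7.25% of *Tgfb3* UMIs. As each condition was 1 library, no test was possible, and the 95% intervals below cover counting error only. Levels are again CPM, here UMIs of a gene scaled to the UMIs of its class.

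**Figure D3:**
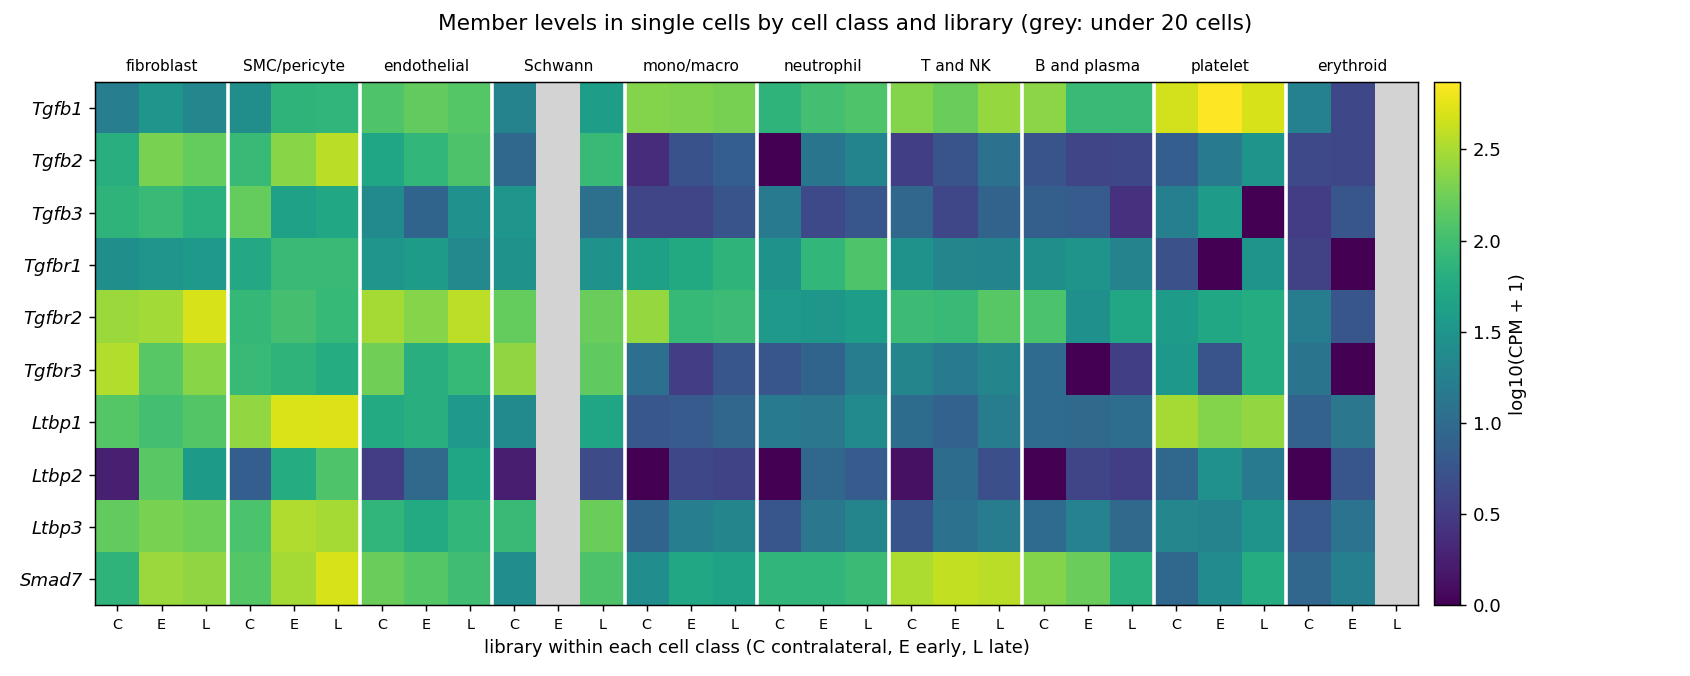
Level of each gene by cell class and library as log10(CPM + 1), in color, with contralateral (C), early (E), and late (L) libraries side by side and classes of under 20 cells in gray. *Tgfb1* is highest in platelets, and *Ltbp2* goes from near 0 to 135 CPM in fibroblasts.

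*Tgfb1* was highest in platelets, at 467, 741, and 500 CPM in contralateral, early, and late libraries. T and NK cells held 216, 164, and 262 CPM of it, mono/macros 219, 205, and 192 CPM, and B and plasma cells 237, 87.9, and 84.0 CPM. It was found in the vessel wall as well, with 120, 149, and 129 CPM in ECs and 24.9, 72.5, and 76.8 CPM in SMCs and pericytes, the first of these from 8 UMIs. In fibroblasts it reached 15.7, 31.2, and 20.4 CPM. Erythroid cells, which should lack it, held 17.1 CPM in the contralateral library. Within mono/macros the early level was 0.938 times the contralateral one (95% interval 0.872 to 1.01), and the share of cells with a UMI after thinning to 1000 UMIs per cell was 17.1%, 18.6%, and 16.8% (erythroid cells 1.88% in the contralateral library). The share of all *Tgfb1* UMIs that came from mono/macros was 31.5% in the contralateral, 79.6% in the early, and 59.7% in the late library. The late level was 0.879 times the contralateral one (0.816 to 0.947). Mono/macros made up 11.5%, 49.7%, and 32.7% of kept cells. Over all kept cells *Tgfb1* stood at 88.9, 145, and 88.9 CPM, so that the higher late level of bulk tissue was not seen there.

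Fibroblasts held most UMIs of *Tgfb2* and *Tgfb3* in every library. ECs held 14.2% of *Tgfb2* and 5.84% of *Tgfb3* UMIs in the contralateral library, and at most 1.43% and 0.348% in AVF libraries. SMCs and pericytes held 2.6% and 4.3% in the contralateral, 29.3% and 14.6% in the early, and 36.2% and 15.7% in the late library. Most contralateral fibroblasts (1682 of 1882) lay in cluster 1, most early ones (339) in cluster 4, and late ones in clusters 3 (1040) and 4 (905), so that levels over the whole class compare different clusters. *Tgfb2* in fibroblasts was 63.1 CPM in contralateral, 197 CPM in early, and 156 CPM in late cells, ratios of 3.12 (95% interval 2.88 to 3.38) and 2.47 (2.30 to 2.65). Within cluster 3, which all 3 libraries share, it went the other way, with 153, 113, and 112 CPM (195, 67, and 1040 cells), while cluster 1 held 46.8 CPM in contralateral and cluster 4 held 212 CPM in early and 195 CPM in late cells. In SMCs and pericytes *Tgfb2* was 84.1, 229, and 374 CPM, the first from 27 UMIs in 32 cells, and in ECs 49.6, 79.1, and 117 CPM. In bulk tissue no increase of *Tgfb2* was called. *Tgfb3* in SMCs and pericytes went the other way, from 156 to 43.4 and 51.4 CPM, ratios of 0.279 (0.204 to 0.387) and 0.33 (0.247 to 0.449), while in fibroblasts it was 72.3, 86.6, and 65.3 CPM. Its contralateral level in SMCs and pericytes came from 50 UMIs in the same 32 cells.

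Betaglycan was lower in the fibroblasts and ECs of AVF libraries. *Tgfbr3* in fibroblasts was 349 CPM in contralateral, 131 CPM in early, and 229 CPM in late cells, ratios of 0.377 (95% interval 0.355 to 0.399) and 0.658 (0.636 to 0.681), and in ECs it was 178, 61.5, and 81.9 CPM. Within fibroblast cluster 3 it was 379, 131, and 217 CPM, while cluster 1 held 343 CPM in contralateral and cluster 4 held 131 CPM in early and 238 CPM in late cells. After thinning, 24.7%, 13.5%, and 20.4% of fibroblasts held a UMI of it, against 1.25%, 0%, and 0% of B and plasma cells, of which 320, 40, and 71 were counted. Fibroblasts held 81.2%, 71.9%, and 91.0% of its UMIs. The bulk level also was lowest in early AVFs, and fibroblasts made up 29.8%, 8.58%, and 34.0% of kept cells.

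*Tgfbr2* differed between mono/macros of the libraries by cluster. Over all mono/macros it was 263, 82.2, and 92.2 CPM, ratios to the contralateral library of 0.312 (95% interval 0.290 to 0.336) and 0.35 (0.325 to 0.377). Most contralateral mono/macros (569) lay in cluster 12, led by *Cd163* and *Mrc1*, most early ones (1771) in cluster 0, led by *Il1b*, and late ones in clusters 0 (1130) and 2 (764), the latter led by *Lyz2* and *C1qb*. Within cluster 0 the level was 44.9, 55.7, and 53.7 CPM, and within cluster 2 it was 149, 152, and 164 CPM. Cluster 12 held 321 CPM in contralateral and 352 CPM in early cells. Within a cluster the levels thus lay within the counting intervals of each other or close to them. These rest on only 66 contralateral cells in cluster 0, 92 in cluster 2, and 23 early cells in cluster 12. With so few cells the intervals are wide and cannot show that levels were equal. In fibroblasts *Tgfbr2* was 275, 293, and 494 CPM. *Tgfbr1* was at 41.5, 54.3, and 72.2 CPM in mono/macros and 29.0, 79.4, and 120 CPM in neutrophils, the first of these from 6 UMIs.

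*Ltbp2* had the largest ratio of any member in single cells, in fibroblasts. The contralateral library held 10 UMIs of it in 1882 fibroblasts, or 0.767 CPM, while early fibroblasts held 135 CPM and late fibroblasts 35.5 CPM, ratios of 176 (95% interval 95.4 to 368) and 46.3 (25.1 to 96.7). After thinning to 1000 UMIs, no UMI was found in 1584 contralateral fibroblasts, against 11.3% of early and 3.39% of late fibroblasts with one, and 0% of B and plasma cells in each library. Without thinning these shares were 0.478%, 56.4%, and 20.7% of fibroblasts. Mono/macros, which are not a known source, held 0, 3.16, and 2.87 CPM. In SMCs and pericytes it was 6.23 CPM from 2 UMIs, then 58.8 and 120 CPM. The late level over the early one was 0.263 (0.246 to 0.282) in fibroblasts and 2.04 (1.79 to 2.32) in SMCs and pericytes, but on thinned cells the latter came to −0.103 on the log2 scale. In bulk tissue late AVFs were above early ones in every library. Within the fibroblast clusters, cluster 3, led by *Serping1* and *Dcn*, held 3.12, 189, and 32.8 CPM in contralateral, early, and late cells, and cluster 4, led by *Ptx3* and *Tnfaip6*, 125 CPM in early and 38.4 CPM in late cells. Cluster 1, with 1682 of the contralateral fibroblasts, held 0.273 CPM from 3 UMIs.

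**Figure D4:**
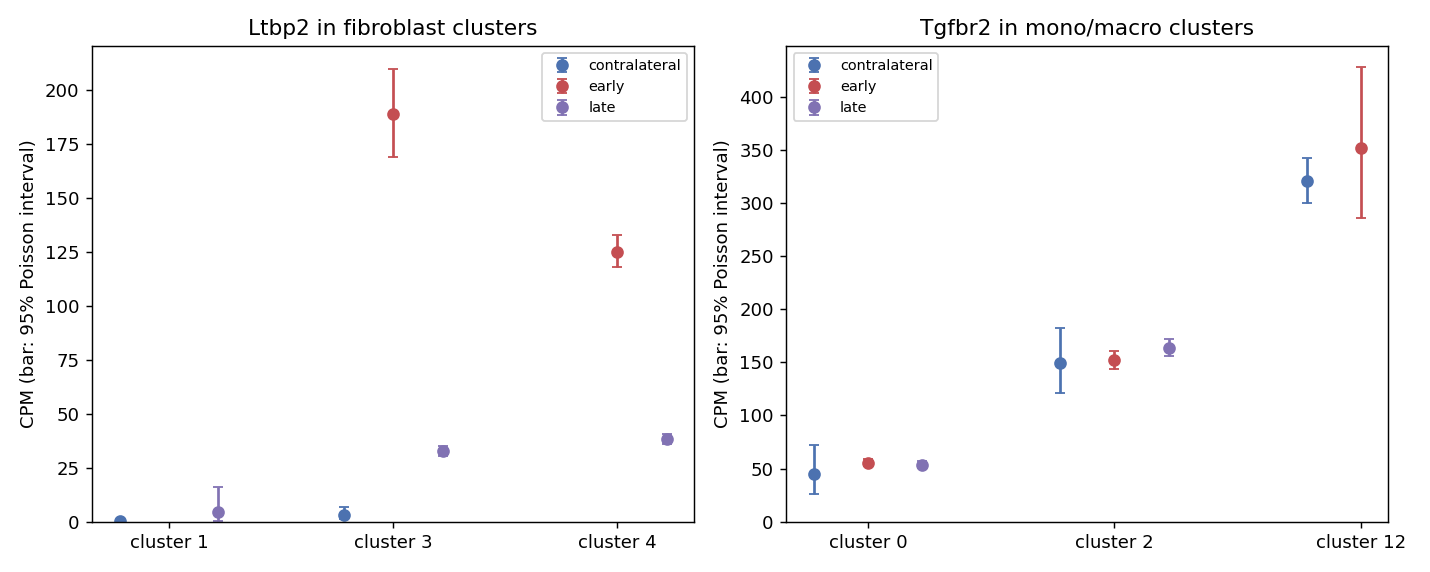
Level in CPM (vertical axes, from 0) with exact 95% Poisson intervals of *Ltbp2* in fibroblast clusters 1, 3, and 4 and of *Tgfbr2* in mono/macro clusters 0, 2, and 12, by library. *Ltbp2* differs between libraries within cluster 3, from 3.12 CPM in contralateral to 189 CPM in early cells, while *Tgfbr2* differs between clusters, from 53.7 CPM in cluster 0 to 164 CPM in cluster 2 of late AVFs.

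*Ltbp1* in SMCs and pericytes was 252, 510, and 522 CPM, ratios of 2.02 (95% interval 1.62 to 2.55) and 2.07 (1.66 to 2.61), and 130, 101, and 127 CPM in fibroblasts. Platelets held 303, 216, and 250 CPM of it. SMCs and pericytes held 3.68% of *Ltbp1* UMIs in the contralateral, 60.1% in the early, and 49.1% in the late library, where they made up 0.506%, 4.42%, and 8.45% of kept cells. *Ltbp3* in SMCs and pericytes was 112, 336, and 305 CPM, ratios of 3.00 (2.16 to 4.30) and 2.72 (1.96 to 3.89), and 151, 195, and 172 CPM in fibroblasts. The contralateral levels in SMCs and pericytes came from 81 UMIs of *Ltbp1* and 36 of *Ltbp3* in 32 cells. The order of SMC shares differs from the bulk tissue, where summed SMC and pericyte markers were highest in contralateral veins.

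*Smad7* was higher in fibroblasts and in SMCs and pericytes of both AVF libraries than in those of the contralateral library, while no difference was called in bulk tissue. In fibroblasts it was 72.5, 274, and 245 CPM, ratios of 3.78 (95% interval 3.51 to 4.07) and 3.38 (3.17 to 3.62), and in SMCs and pericytes 128, 301, and 499 CPM, the 128 from 41 UMIs. Within fibroblast cluster 3 it was 90.0, 206, and 203 CPM, while cluster 1 held 69.6 CPM in contralateral and cluster 4 held 287 CPM in early and 285 CPM in late cells. In ECs it was 167, 129, and 95.6 CPM, and T and NK cells were high in all libraries (327, 406, and 374 CPM). Mono/macros held 3.23%, 21.0%, and 5.45% of *Smad7* UMIs, where they held 12.8%, 56.2%, and 27.6% of all UMIs. After thinning, 6.06%, 21.8%, and 19.1% of fibroblasts held a UMI of it, against 0.823% and 2.36% of contralateral and early erythroid cells. Immediate-early genes, a list added after the data were seen because digestion at 37 °C is known to raise them, summed to 12300, 12400, and 23500 CPM in fibroblasts, and the part of the digestion in the level of *Smad7* was not tested.

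**Figure D5:**
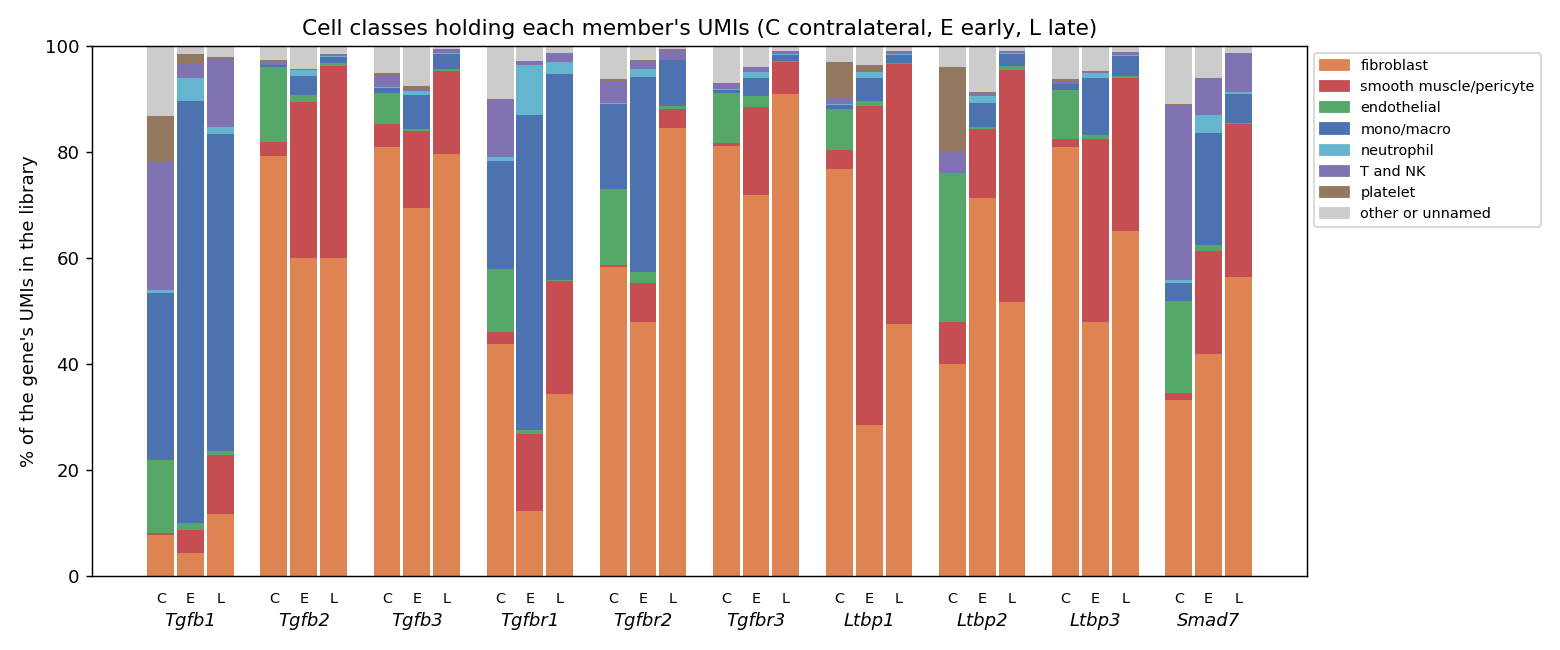
Share of each gene's UMIs by cell class (vertical axis, percent) in the contralateral (C), early (E), and late (L) libraries. Mono/macros hold 79.6% of *Tgfb1* in the early library, fibroblasts 91.0% of *Tgfbr3* in the late library, and SMCs and pericytes 60.1% of *Ltbp1* in the early library, and the contralateral bar of *Ltbp2* rests on 25 UMIs.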

How the data were processed

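For 25 bulk libraries the authors deposited whole-number read counts per gene without normalization, and for 3 single-cell libraries UMI counts per gene and barcode from Cell Ranger 6.0.2 (per the file headers). The submitters' processing notes name STAR, Cell Ranger, mm10, and GRCm38 without roles. How the bulk reads were counted, and with which annotation, is not given in the sources used here. Summed bulk counts were 20254173 to 67457501 per library. Nothing in the labels says more of the replicates than that each is a separate vessel.

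Genes whose DESeq2-normalized counts averaged 100 or more (12673, all 10 members among them) were fitted together over the 4 groups with edgeR 4.0.16 (R 4.3.3), TMM scaling, and the quasi-likelihood F test. A call needed a Benjamini-Hochberg adjusted *p* under 0.01 over all tested genes and a log2 fold change of 1 or more in either direction. CPM were taken on TMM-scaled library sizes, and per kilobase on the exonic length of the reference annotation. DESeq2 1.42.0, other filters, scalings, and sets of libraries were alternatives.

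Single cells were clustered with scanpy 1.11.5 and leidenalg 0.10.2 (2000 variable genes, 12 components, 20 neighbors, resolution 0.5). Scrublet marked 122 of 16893 kept cells (0.722%) and none was removed. Intervals are exact Poisson or binomial at 95%, and a ratio needed 20 cells per class and library. The members and gene lists were chosen with earlier results of these data known. All 10 members are named, and of other pathway genes those with the largest called differences per list. Scripts were tested on simulated data. Protein sequences were not used here.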

Additional observations from a re-analysis of the deposited data

Results flagged for a closer look

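In each of the 40 combinations of member and bulk group, the highest or lowest library was compared with its nearest neighbor, and 4 lay apart from their group, where chance alone gives about 1 in 20. *Tgfbr1* in early 6 was far below the other early AVFs, at 43.0 CPM. *Tgfbr3* was far lower in the same library, at 41.5 CPM. *Tgfbr2* in contralateral 28 was far above the other contralateral veins, at 1150 CPM. *Ltbp3* in early 10 was far above the other early AVFs, at 112 CPM. Contralateral 28 had no read for 22.5% of the tested genes, the most of all libraries, and early 6 was among the 3 early AVFs with the lowest fibroblast markers.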

How the results depend on the processing

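Counts were few for *Tgfb1* in contralateral veins (at most 16 reads per library) and for *Ltbp2* in contralateral cells (25 UMIs). The part of depth in this was not tested. No paired analysis was possible because the groups share no replicate numbers. With only the 2 groups compared, the members called numbered 1 (early), 0 (mid), and 0 (late) against contralateral veins and 2 from early to late AVFs (*Ltbp1* and *Ltbp2*). In females these counts against contralateral veins were 0, 0, and 0, and in males 1, 0, and 0. At an adjusted *p* under 0.05, the threshold in the study's methods where its results use 0.01, 1 member was called from early to mid and 1 from early to late AVFs, *Tgfb3* in both. Against contralateral veins this threshold added *Tgfb3* (lower in early) and *Ltbp1* (higher in mid and late AVFs). Leaving out 1 library at a time, 1 to 3 members were called in late AVFs against contralateral veins.

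No called difference turned sign, and the following differences that were not called did (log2 scale). For early against contralateral these were *Tgfb2* (0.16) and *Tgfbr1* (−0.27) in males, *Ltbp3* (0.45) and *Smad7* (0.13) in females, and *Ltbp3* without early 5, 6, and 7 (0.22). *Tgfb2* in mid AVFs came to 0.06 with DESeq2 size factors or DESeq2's test, 0.14 without scaling, 0.03 with filterByExpr, 0.0 with sex as a covariate, 0.74 in males, 0.01 with the 2 groups alone, and 0.01 without early 5, 6, and 7. Late against contralateral gave −0.02 for *Tgfb2* in females and 0.45 for *Smad7* in males. *Tgfb1* in males came to 0.15 from early to mid, 0.37 from early to late, and 0.22 from mid to late. *Smad7* from early to late came to 0.08 without scaling, 0.58 in males, and 0.10 without early 5, 6, and 7. From mid to late, males gave 0.14 for *Tgfb3* and −0.03 for *Tgfbr1*, and females −0.31 for *Smad7*. Leaving out 1 library at a time gave −0.12 to 0.46 for *Tgfbr1*, −0.29 to 0.27 for *Ltbp3*, and −0.43 to 0.16 for *Smad7* in early AVFs, −0.21 to 0.22 (mid) and −0.01 to 0.42 (late) for *Tgfb2*, −0.55 to 0.04 for *Tgfb1* from early to mid, −0.62 to 0.03 for *Smad7* from early to late, and, from mid to late, −0.02 to 0.08 for *Tgfbr1*, −0.04 to 0.16 for *Tgfbr2*, −0.03 to 0.18 for *Tgfbr3*, and −0.19 to 0.34 for *Smad7*. The cause was not tested.

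Single-cell log2 ratios turned sign for *Tgfb3* in mono/macros, late over early (−0.217 with 20% mitochondrial counts allowed, −0.121 at resolution 1.0), for *Tgfbr2* in fibroblasts, early over contralateral (−0.003 with at least 500 genes per cell), and on thinned cells for *Tgfbr1* in fibroblasts (early over contralateral, −0.01), *Tgfbr2* in ECs (late over contralateral, −0.055), *Ltbp1* in ECs (late over early, 0.245), and *Ltbp2* in SMCs and pericytes (late over early, −0.103). Of the single-cell ratios under an alternative, 835 stayed within their counting interval, 92 moved beyond it, and 7 turned sign. These counts pool settings of unequal effect. Thinning alone, which brings cells to the same depth, left 81 within the interval, moved 68 beyond it, and turned 4. Leaving out the cells marked by Scrublet kept all 200 within it.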

Other observations

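The levels of some members differed widely between bulk tissue and single cells, in either direction. Over all kept cells *Tgfb1* stood at 88.9, 145, and 88.9 CPM in contralateral, early, and late libraries, against bulk means of 0.344, 6.80, and 4.65 CPM, ratios of 258, 21.3, and 19.1. Only 0.147%, 0.421%, and 0.907% of the genes compared had a higher ratio. *Smad7* had ratios of 9.38, 15.0, and 29.6, with 2.11%, 0.688%, and 0.604% of genes above it. *Ltbp2* in late AVFs lay at the other end, with a ratio of 0.0904 that 99.9% of genes exceeded, and *Tgfb3* had ratios of 0.202, 0.362, and 0.176. The median ratio over all genes compared was 0.729, 0.681, and 0.715. Bulk counts come from whole transcripts of ground tissue and UMIs from the 3′ ends of digested cells, and the part of either in these ratios was not tested.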
